A study of Homo sapiens with 5 samples.

Results

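A set of 10 genes of the melanocyte lineage and of pigment synthesis is described here by where the histone demethylase PHF8 was found on them. They were listed by name and not by any measured value, though with earlier results of these data known. They are 10 of the 20162 protein-coding genes of the annotation. The set holds the transcription factors MITF, SOX10 and PAX3, the melanin enzymes TYR, TYRP1 and DCT, the melanosome proteins PMEL and MLANA, the receptor MC1R and the transporter OCA2. To learn which genes PHF8 occupies, the protein was mapped by ChIP-seq, in which chromatin is immunoprecipitated and sequenced, in the established human melanoma cell line SKMEL-147. There were 3 ChIP replicates (A, B1 and B2) of paraformaldehyde-crosslinked cells, and 2 input chromatin samples that enter only through the values the peak caller gave. The labels name no treatment or genotype beyond the cell line, and nothing says whether the replicates were separate cultures, so the spread given is that between these samples. All samples were of 1 condition and 1 cell line, and the values describe binding and not RNA.

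PHF8 belongs to the Jumonji C family of demethylases, removes repressive methyl marks from histone tails, and carries a PHD finger that binds the methylated histone tail found at active gene starts. Melanocytes arise from the neural crest, where PAX3 and SOX10 switch on MITF, the transcription factor that in turn drives the genes of melanin synthesis. MITF is made from several alternative promoters, and the one nearest the 3′ end of the gene gives the melanocyte isoform. Melanin is made in melanosomes, organelles built on PMEL fibrils in which tyrosinase (TYR), TYRP1 and DCT act. OCA2 keeps the pH of melanosomes in the range that tyrosinase needs. MC1R is the receptor for melanocyte-stimulating hormone on the cell surface.

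A transcription start site (TSS) was the 5′ end of any annotated transcript, and TSSs of 1 gene lying less than 500 bp apart were treated as 1 TSS group, numbered from the 5′ end of the gene. The 10 genes had 91 transcripts with 84 distinct TSSs in 41 TSS groups. The sequences that bear most directly on the results are the 150 bases before the first TSS of a group, in the build hg19 (GRCh37), written 5′ to 3′ along the gene's strand, with CpG dinucleotides in capitals. The first pair comes from MITF on the plus strand, with the bound start at the 5′ end of the gene (chr3:69788457-69788606) and the start of the melanocyte isoform, which had no peak (chr3:69985588-69985737).
MITF TSS group 1: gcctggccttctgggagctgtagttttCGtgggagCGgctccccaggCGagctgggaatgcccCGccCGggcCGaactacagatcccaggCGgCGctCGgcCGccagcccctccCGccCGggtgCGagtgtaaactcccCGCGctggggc
MITF TSS group 7: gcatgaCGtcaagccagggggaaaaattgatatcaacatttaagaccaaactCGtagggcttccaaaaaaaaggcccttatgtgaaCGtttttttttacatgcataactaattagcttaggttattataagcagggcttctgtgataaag
The window before group 1 held 15 CpG dinucleotides and that before group 7 held 3. The next window lies before the bound start of PAX3 (chr2:223163718-223163867, minus strand), another lineage factor.
PAX3 TSS group 1: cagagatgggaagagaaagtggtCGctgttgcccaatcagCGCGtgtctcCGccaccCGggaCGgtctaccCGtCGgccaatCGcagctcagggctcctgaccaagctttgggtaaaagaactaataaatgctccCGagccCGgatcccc
The PAX3 window held 11 CpG dinucleotides. The main starts of the 3 melanin enzymes, none of which had a peak, are shown for TYR (chr11:88910893-88911042, plus strand), TYRP1 (chr9:12693159-12693308, plus strand) and DCT (chr13:95131937-95132086, minus strand).
TYR TSS group 1: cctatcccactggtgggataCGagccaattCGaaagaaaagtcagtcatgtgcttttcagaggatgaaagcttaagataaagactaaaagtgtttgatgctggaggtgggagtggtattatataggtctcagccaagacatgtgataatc
TYRP1 TSS group 2: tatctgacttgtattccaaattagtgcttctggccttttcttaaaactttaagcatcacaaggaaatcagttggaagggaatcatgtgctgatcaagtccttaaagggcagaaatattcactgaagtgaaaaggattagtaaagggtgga
DCT TSS group 1: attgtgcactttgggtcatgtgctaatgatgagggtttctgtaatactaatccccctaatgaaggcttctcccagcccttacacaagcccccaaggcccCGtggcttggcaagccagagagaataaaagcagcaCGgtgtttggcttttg
These windows held 2, 0 and 2 CpG dinucleotides in the order TYR, TYRP1 and DCT. OCA2 (minus strand) had no peak at its start (chr15:28344462-28344611) and a peak in an intron, of which the 150 bases around the summit in replicate A are shown (chr15:28341055-28341204).
OCA2 TSS group 1: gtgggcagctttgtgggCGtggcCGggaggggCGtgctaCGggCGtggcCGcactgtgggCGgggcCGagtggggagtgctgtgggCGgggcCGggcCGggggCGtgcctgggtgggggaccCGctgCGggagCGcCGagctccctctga
OCA2 intronic summit: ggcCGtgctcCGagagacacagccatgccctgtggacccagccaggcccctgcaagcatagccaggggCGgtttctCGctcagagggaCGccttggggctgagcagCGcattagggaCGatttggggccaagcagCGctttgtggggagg
The unbound OCA2 start held 16 CpG dinucleotides, more than any other window shown, and the intronic summit held 8.

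The lists held 21506 peaks in A, 20882 in B1 and 20120 in B2. The fold enrichment, the linear ratio of ChIP over local background at the peak's summit, had a median of 18.9 in A and of 11.8 in each of B1 and B2, the libraries whose labels share a letter. Since its scale differed between lists, strength was also given as a percentile, from 0 to 100, among the strongest promoter peaks of all protein-coding genes with one in the same replicate. The weakest summits in the lists rested on 8, 8 and 10 ChIP fragments in A, B1 and B2. Binding that did not pass the peak caller's cutoff is not in the lists, so a missing peak does not show that binding was absent. Fragment numbers carry exact 95% Poisson intervals, which cover counting error only.

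Of the 10 genes, 4 (40.0%) carried a PHF8 peak within 1 kb of 1 or more TSSs in each of the 3 replicates, the condition under which a gene was called bound. The bound genes were MITF, PAX3, SOX10 and PMEL. Of all 20162 protein-coding genes, 12139 were called bound by the same rule (60.2%). The study, with a like rule, reported fewer PHF8 targets than this, and the reason for the difference was not tested. TYR, TYRP1, DCT, MLANA and OCA2, 5 of the 10 genes, had no peak within 1 kb of any TSS in any replicate, beside 37.0% of all protein-coding genes. MC1R had a weak promoter peak in A and B1 and none in B2. All 3 lineage transcription factors were bound, whereas none of the 3 melanin enzymes was. The 3 factors each had a TSS with CpG-island-like sequence (defined below), and the 3 enzymes had none. Of all protein-coding genes, 79.5% of those with such a TSS and 9.59% of those without were called.

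**Figure D1:**
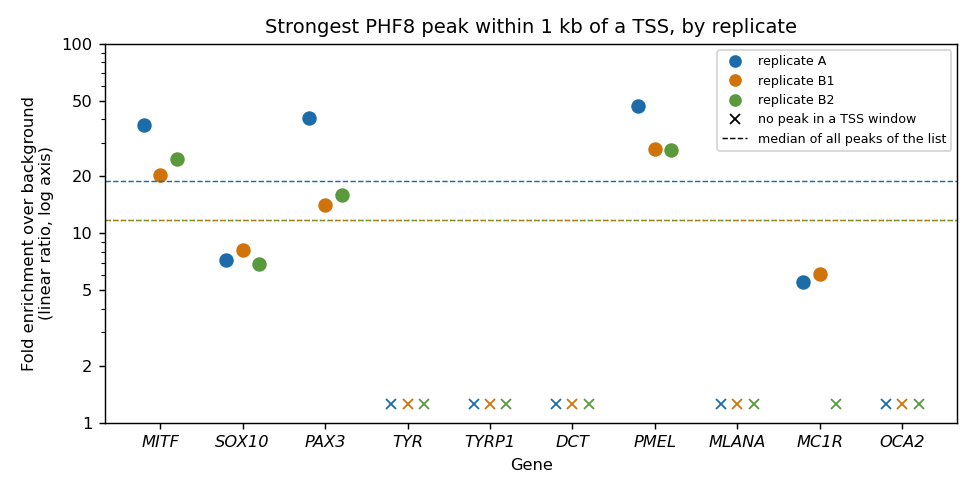
Fold enrichment of the strongest PHF8 peak within 1 kb of a TSS of each gene (linear ratio on a log axis), with 1 point for each replicate, crosses near the bottom where a replicate had no peak and so no value, and dashed or dotted lines at each list's median over all peaks. MITF, PAX3 and PMEL lay above the median of the same list in all 3 replicates, SOX10 and MC1R lay below it, and TYR, TYRP1, DCT, MLANA and OCA2 had crosses only.

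MITF was bound at its 5′-most start and nowhere else along the gene. MITF spans chr3:69788607-70017487 on the plus strand, with 20 transcripts from 19 TSSs in 7 groups. The peak at TSS group 1 (chr3:69788493-69789057 over the replicates), the start of the long A isoform, had fold enrichments of 37.6, 20.4 and 24.6 in A, B1 and B2. Its −log10 q-value, from the adjusted p-value the peak caller gave that peak, was 158, 87.8 and 96.0 in that order. In A the summit rested on 122 fragments (95% interval 101 to 146). B1 had 89 (71.5 to 110) and B2 had 88 (70.6 to 108). All replicates placed it just downstream of the start, 82, 140 and 80 bp from the nearest TSS in A, B1 and B2, in the untranslated part of the exon in A and B2 and in the coding part in B1. A second, weaker peak lay upstream of the same start (chr3:69787997-69788450), with a fold enrichment of 9.75, 4.54 and 5.27 and summits 345, 284 and 287 bp before the first TSS.

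MITF TSS groups 2 to 6, at 69807855, 69811875, 69812707 to 69812962, 69843559 and 69915375 to 69915418, had no peak within 1 kb in any replicate. TSS group 7, at 69985738 to 69985980 and the start of 6 transcripts, is the promoter of the melanocyte isoform and also had none. The summit nearest to it lay 62559 bp downstream in A, 62570 bp in B1 and 62539 bp in B2, beyond the end of the gene. No peak outside the TSS windows lay over MITF in any list. Binding at the 5′-most group alone was a common arrangement, found in 3953 of the 7469 protein-coding genes with at least 3 TSS groups and a bound one (52.9%). The 5′-most group of MITF was also its single group with CpG-island-like sequence.

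**Figure D2:**
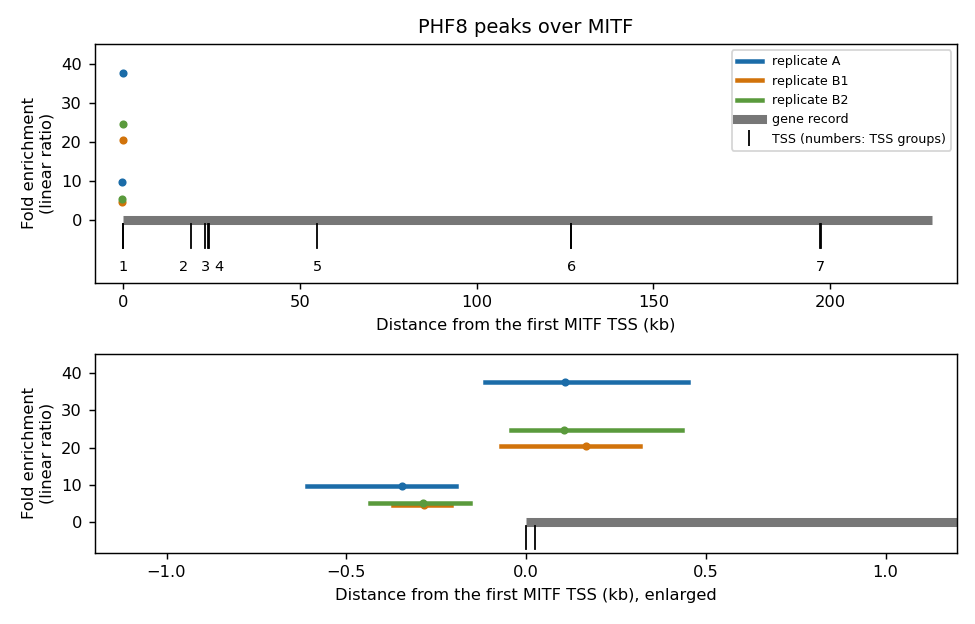
PHF8 peaks over MITF, with distance from the first MITF TSS in kb against linear fold enrichment, where lines span peaks, points mark summits, the grey bar is the gene record, ticks are the first and last TSS of each group and the numbers are TSS groups. The upper panel shows the whole gene and the lower panel the first TSS group enlarged, and peaks of all 3 replicates stood at group 1 and at none of groups 2 to 7.

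PAX3, which lies upstream of MITF in the neural crest, carried the most PHF8 regions of the 10 genes. PAX3 spans chr2:223064606-223163717 on the minus strand. Its TSS group 1, the start of 9 of its 15 transcripts, was covered by a broad peak (chr2:223162927-223164147 over the replicates), with fold enrichments of 40.9, 14.1 and 16.0 in A, B1 and B2. The −log10 q-value was 144, 50.5 and 63.4, and the summit rested on 104, 61 and 72 fragments. The peak was 1109 bp wide in A, 1221 bp in B1 and 827 bp in B2, where a separate peak of 237 bp stood beside it, against a median width over all peaks of 475, 449 and 441 bp. Its summit lay 12, 0 and 13 bp from a TSS in A, B1 and B2, in the untranslated part of the exon. The 3 replicates thus gave nearly the same position, while the height in A was above that in B1 and B2, as the median of that list also was.

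Inside the first part of PAX3 lay 2 further shared regions outside the TSS windows, both in introns. The stronger (chr2:223155221-223156326) had fold enrichments of 31.0, 17.5 and 15.3 in A, B1 and B2, with summits 2906, 2902 and 2891 bp downstream of the nearest PAX3 TSS. Its mean percentile among all peaks of a list was 67.5 ± 4.0 (SD, n = 3), close to that of the promoter peak at 69.3 ± 13.7. The weaker (chr2:223161554-223162257) had 7.17, 6.41 and 6.20, and its summits lay 830 to 1237 bp from a TSS of CCDC140, a neighbouring long non-coding RNA gene. A further weak peak at chr2:223162372-223162598 was listed in A (4.89) and B2 (3.53) and not in B1. With 3 shared regions over the gene and 1 kb around it, PAX3 was among the 4.83% of protein-coding genes with at least as many. TSS groups 2 to 4 of PAX3 had no peak within 1 kb in any replicate.

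SOX10, the neural crest factor that activates MITF, was bound weakly. SOX10 spans chr22:38366693-38383429 on the minus strand, and its peak (chr22:38380050-38380561) had fold enrichments of 7.27, 8.18 and 6.90 in A, B1 and B2. The −log10 q-value was 11.2, 14.9 and 11.2, and the summit rested on few fragments. There were 18 of them in A (95% interval 10.7 to 28.4), while B1 had 23 (14.6 to 34.5) and B2 had 20 (12.2 to 30.9). The 3 replicates were alike in height here, and each lay below the median of its list. The summit stood 29 bp before, 19 bp before and 17 bp after a TSS of group 3 in A, B1 and B2, in sequence annotated as coding in a SOX10 transcript. TSS group 3, at 38380353 to 38380562, is the annotated start of 5 of the 9 SOX10 transcripts and lies inside the gene record. SOX10 was no longer called where a fold enrichment above 10 was required, or where 1 TSS per gene (that of group 1) was used.

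The 5′ end of the SOX10 record, group 1 at 38383429 and the start of 1 transcript, had no peak within 1 kb. The summit nearest to group 1 lay 2985, 2995 and 3031 bp downstream. Group 4 (38379421) was called through the edge of the same peak, and in B1 alone a second small peak of 10 fragments (fold enrichment 3.75) stood 343 bp from it. Downstream of SOX10, the start shared by POLR2F, an RNA polymerase subunit, and C22orf23 was bound with a fold enrichment of 52.2, 20.4 and 20.5, well above SOX10 in each replicate.

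None of the 3 melanin enzymes had a peak over the gene or within 1 kb of it in any replicate. TYR, the enzyme that starts melanin synthesis (chr11:88911043-89028927), lay 195 kb from the nearest peak in A, B1 and B2, which stood 1 to 4 bp from a TSS of NOX4, an NADPH oxidase, with a fold enrichment of 26.0, 17.0 and 11.2. TYRP1 (chr9:12685439-12710285), a later enzyme of the pathway, lay 64.7, 65.6 and 65.5 kb from the nearest peak, at LURAP1L. DCT, dopachrome tautomerase (chr13:95089065-95131936), lay 116 kb from the nearest peak in each list, which stood at TGDS with a fold enrichment of 46.8, 20.0 and 23.3. Over the 7470 protein-coding genes with no promoter peak in any replicate, the median distance from the gene to the nearest peak was 48.2, 51.3 and 53.5 kb. By this distance TYR stood at the 82.0, 80.7 and 80.2 percentile of those genes, DCT at 71.4, 69.7 and 69.2, and TYRP1 at 57.2, 55.8 and 55.0. TYR and DCT thus lay further from any peak than most unbound genes, and TYRP1 lay near the middle.

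The melanosome proteins PMEL and MLANA differed from each other. MLANA, a melanosome membrane protein (chr9:5890889-5910606), had no peak over the gene, and the nearest peak lay 57.4 kb away in each list, at ERMP1, with a fold enrichment of 24.9, 10.7 and 9.88. PMEL, the fibril protein (chr12:56347889-56367101, minus strand), was called bound, but mainly through peaks at the starts of its neighbours. The strongest peak in a PMEL window had fold enrichments of 47.1, 27.8 and 27.7 in A, B1 and B2. In A it was the region chr12:56360177-56361218, whose summit lay 90 bp from a TSS of CDK2, a cell cycle kinase gene transcribed away from PMEL, and 188 bp from one of PMEL. In B1 and B2 it was the region chr12:56367738-56368348 at the start of RAB5B, an endosomal GTPase gene, with summits 124 and 100 bp from a RAB5B TSS and 908 and 884 bp from the 5′ end of PMEL.

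At the CDK2 side fold enrichments were 47.1, 20.0 and 13.6 in the 3 replicates, and the summit of each of these peaks lay nearer to CDK2, at 90, 91 and 126 bp. B1 also had a small peak there (7.16) with its summit 74 bp inside PMEL. At the RAB5B side the fold enrichment was 39.4, 27.8 and 27.7, and A alone had a further peak (14.6) 79 bp before the 5′ end of PMEL. TSS group 3, the start of 9 of the 19 PMEL transcripts at 56359802 to 56359826, lay 882, 546 and 918 bp from the nearest summit. Where a peak was counted only for the protein-coding gene with the nearest TSS, PMEL kept a promoter peak in A and B1 and not in B2. By that rule 3 of the 10 genes were called bound, beside 10762 of 20162 protein-coding genes (53.4%).

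MC1R (chr16:89978527-89987381, plus strand) had a peak at chr16:89984079-89984780 in 2 of the 3 replicates. Its fold enrichment was 5.52 in A, on 23 fragments (95% interval 14.6 to 34.5), and 6.14 in B1, on 17 (9.90 to 27.2), with summits 844 and 619 bp before TSS group 4. B2 had no peak there, and without B2 the gene would be called. The 2 peaks stood at the 12.2 and 24.4 percentile of all peaks of their lists. Downstream of MC1R, the start of TUBB3, a neuronal tubulin gene, was bound in all 3 replicates with a fold enrichment of 46.4, 28.6 and 27.6. The strong peak beside MC1R stood at the neighbouring start, as at PMEL.

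OCA2 (chr15:28000021-28344461, minus strand), the melanosome transporter named for oculocutaneous albinism, was bound inside the gene and not at its start. Its single TSS group, at 28344439 to 28344461, had no peak within 1 kb, the nearest edge of a peak lying 2652, 2675 and 2725 bp away in A, B1 and B2. The stronger intronic region (chr15:28340900-28341273) had fold enrichments of 23.7, 7.32 and 10.4 in A, B1 and B2, on 60, 25 and 37 fragments, with summits 3309, 3299 and 3334 bp downstream of the start. The weaker one (chr15:28341474-28341787) had 8.97, 5.80 and 4.27, with summits 2798, 2766 and 2796 bp downstream. Summit positions lay close together in the 3 replicates, while A was the highest at both regions. A further intronic peak, at chr15:28089279-28089501, was listed in B1 (6.28) and B2 (4.37) and not in A.

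The TSS of another protein-coding gene nearest to the OCA2 regions was that of HERC2, at least 17190 bp away. A shared gene-body peak outside the TSS windows was found in 2 of the 10 genes, PAX3 and OCA2, beside 1226 of 20162 protein-coding genes (6.08%). Of these, PAX3 alone kept one where a fold enrichment above 10 was required. OCA2 was also 1 of 140 genes with such a peak among the 2595 that had CpG-island-like sequence at a TSS and no promoter peak in any replicate (5.39%).

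**Figure D3:**
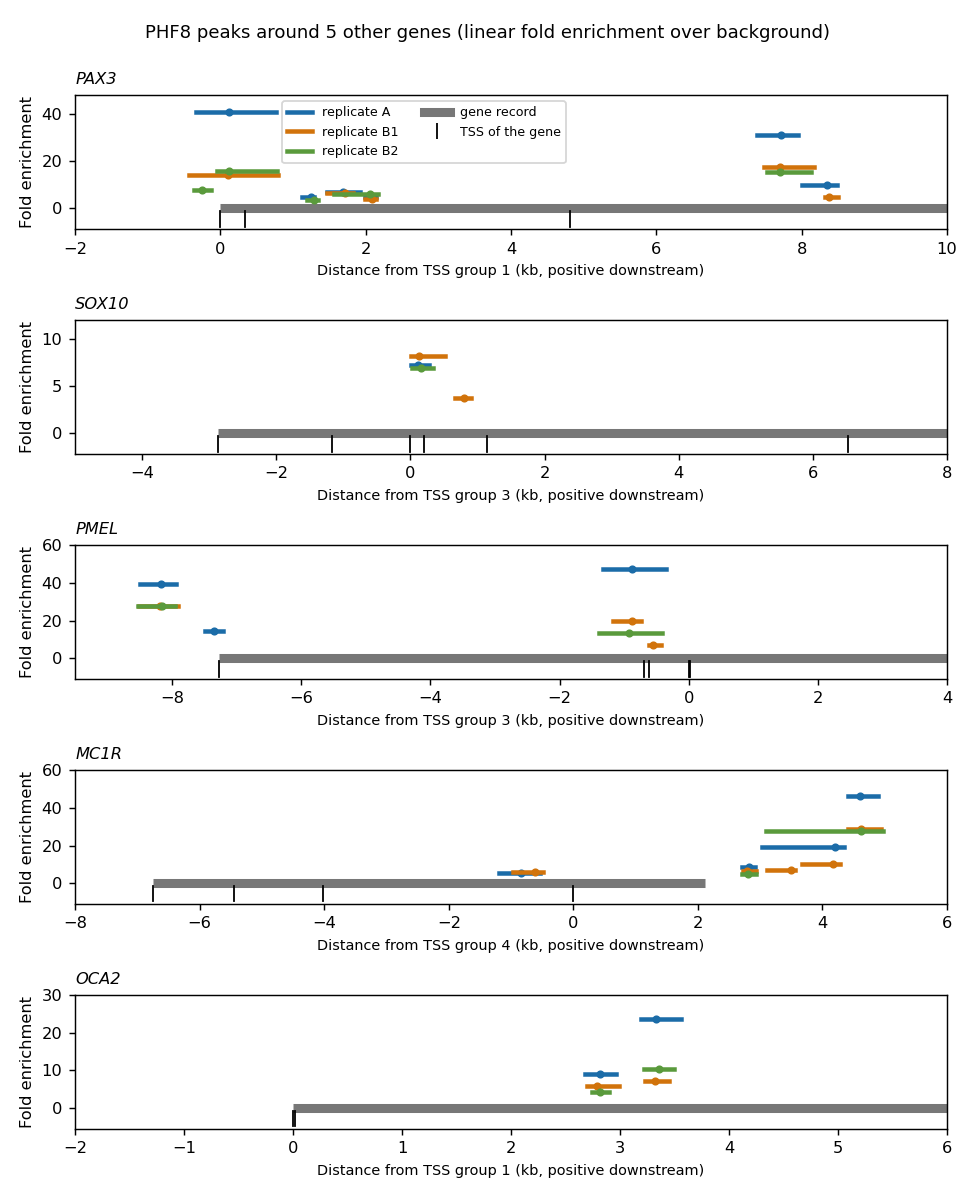
PHF8 peaks around PAX3, SOX10, PMEL, MC1R and OCA2, with distance from the named TSS group in kb along the gene's strand against linear fold enrichment, drawn with lines for peaks, points for summits, grey bars for gene records and ticks for the first and last TSS of each group. The main promoter peaks of PAX3 and SOX10 stood on a TSS of the gene, and PAX3 also had shared regions in introns. The strong peaks at PMEL and MC1R stood at or beyond the edge of the gene record or over an upstream start. Those of OCA2 lay about 3 kb inside the gene.

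Among the 4 bound genes, the percentile of the strongest promoter peak was 82.3, 81.3 and 84.6 for PMEL in A, B1 and B2, with a mean of 82.8 ± 1.7 (SD, n = 3). MITF followed at 62.2, 55.1 and 75.1, with a mean of 64.1 ± 10.2. PAX3 stood at 69.7, 30.0 and 40.4, with a mean of 46.7 ± 20.6, and SOX10 at 3.82, 10.3 and 7.10, with a mean of 7.06 ± 3.22. PMEL, whose peaks were shared with CDK2 and RAB5B, was thus the highest and SOX10 the lowest in every replicate, while MITF and PAX3 changed places. The PMEL value came from the CDK2 side in A and from the RAB5B side in B1 and B2. Its SD is therefore not the spread of a single site. Ranked among all peaks of a list, the CDK2-side region had a mean percentile of 74.4 ± 17.1 and the RAB5B-side region 88.6 ± 4.97. With windows of 500 bp in place of 1 kb, in which the RAB5B peak no longer counts, the order of PMEL and MITF turned, with mean percentiles of 55.3 for PMEL and 64.2 for MITF. Ranked by summit fragments, the means were 77.1 for PMEL and 76.0 for MITF. The order was the same in all 3 replicates for 5 of the 6 pairs, MITF and PAX3 being the exception with a difference of 17.4 ± 22.2. For those 5 pairs the exact two-sided sign-flip permutation test gave p = 0.25 (0.3 adjusted by Benjamini-Hochberg over 6 pairs), the smallest that 3 replicates allow, and for MITF against PAX3 it gave 0.5, so no order could pass a threshold of 0.05.

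CpG content, which the listing of the genes did not use, was described in 250 bp on either side of each TSS. A TSS group counted as CpG-island-like where its GC share reached 0.5 and the ratio of observed to expected CpG reached 0.6. Of the 41 TSS groups of the 10 genes, 7 were called bound (17.1%), beside 16363 of 69701 groups of all protein-coding genes (23.5%). Of the 6 CpG-island-like groups 4 were bound, beside 73.6% of all such groups, and of the other 35 groups 3 were bound (8.57%), beside 5.63% of all others. The bound island-like groups were MITF group 1 (ratio 0.81), PAX3 group 1 (0.80), SOX10 group 4 (0.75) and PMEL group 2 (0.62). The unbound ones were OCA2 group 1 (0.79) and PAX3 group 2 (0.61). In A and B2 the summits nearest to SOX10 group 4 lay 1023 and 977 bp away. It was called there through the edge of the peak on group 3, which is not island-like. Among the 3 bound groups without island-like sequence were PMEL groups 1 and 3. PMEL group 3 was called through the region on the CDK2 side, with the nearest summits 882, 546 and 918 bp away. PMEL group 1 was called in B1 and B2 through the RAB5B peak, with summits 908 and 884 bp away. With windows of 500 bp, 5 of the 41 groups were bound. The share of all groups was not computed for that window, and the 59.8% of protein-coding genes called with it counts genes and not groups.

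By gene, 4 of the 5 members with a CpG-island-like TSS were called bound, beside 79.5% of the protein-coding genes with one. None of the 5 without one (TYR, TYRP1, DCT, MLANA and MC1R) was called, beside 9.59% of the protein-coding genes without one. The ratio was 0.48 at MITF group 7, the melanocyte start, 0.21 at TYR group 1, 0.16 at TYRP1 group 2, 0.25 at DCT group 1 and 0.42 at MLANA group 1. The share of all TSS groups called rose with the ratio, from 0.868% below 0.1 to 9.73% between 0.4 and 0.5, 64.6% between 0.7 and 0.8 and 77.0% between 0.8 and 0.9. The OCA2 start, at 0.79, had no peak in a range of ratios in which 64.6% of starts were called, and SOX10 group 3 was bound at a ratio of 0.44.

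**Figure D4:**
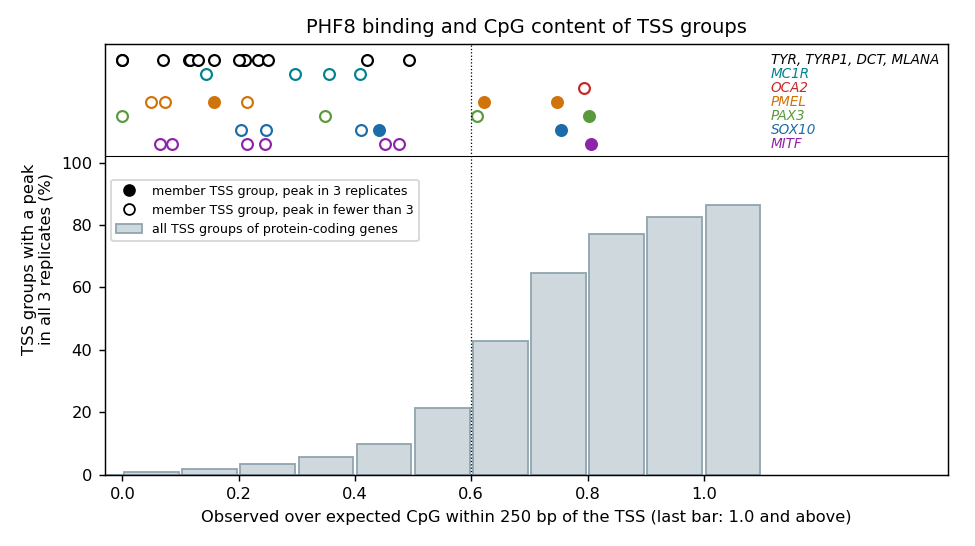
Share of all TSS groups of protein-coding genes with a PHF8 peak in all 3 replicates (bars, %) by observed over expected CpG ratio within 250 bp of the TSS, with the TSS groups of the 10 genes above (filled where bound in 3 replicates, open otherwise) and a dotted line at 0.6. Bars rose from 0.868% to 86.5%, and the open OCA2 point lay at 0.79 among the filled points of MITF, PAX3 and SOX10.

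MITF binds the letters CATGTG and CACGTG, and these were searched on both strands from 250 bp before to 50 bp after the first TSS of each group. CATGTG was found at 8 of the 41 TSS groups (19.5%), beside 13.7% of the 69701 groups of all protein-coding genes. None of the 7 bound groups held it, but 7 groups are too few to set against a share of 13.7%. Some of these groups also share a peak, and whether the letters and PHF8 binding are related was not tested. TYR group 1 held CATGTG at −104 and −12 bp from the TSS, DCT group 1 at −215 and −134 bp and TYRP1 group 2 at −68 bp. These positions can be read in the printed windows as far as the windows reach. The longer TCATGTG, which contains CATGTG, was found at those 3 starts alone among the 41 groups, beside 3.37% of all groups. CACGTG was found at SOX10 group 1 only (−97 bp), beside 5.80% of all groups. A match describes the letters and says nothing about whether MITF was bound.

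Other genes of the melanocyte programme, listed by role with earlier results of these data known, gave unequal counts beside the 60.2% of all protein-coding genes. All 20 genes of melanosome biogenesis and transport were bound, from HPS6 (fold enrichment 62.3, 36.8 and 35.2 in A, B1 and B2) and AP3B1 (53.5, 27.9 and 29.6) down to RAB32 (25.7, 11.9 and 15.8) and RAB38 (16.9, 8.03 and 9.70). HPS6 and AP3B1 belong to the complexes that sort proteins to lysosome-related organelles, and RAB32 and RAB38 are the small GTPases that deliver the melanin enzymes. All 20 had CpG-island-like sequence at a TSS. Of the 7 other melanosome membrane proteins 3 were bound, the channels and transporters CLCN7 (56.5, 34.1 and 32.9), TPCN2 (41.2, 30.6 and 25.0) and ATP7A (20.3, 8.87 and 7.23). GPR143, SLC45A2, SLC24A5 and GPNMB had no promoter peak in any replicate.

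Of 12 other transcription factors of melanocytes and the neural crest, 9 were bound, with CREB1, which relays the MC1R signal, the highest (33.7, 20.8 and 16.5), followed by FOXD3 (27.7, 12.4 and 13.8). SNAI2 (13.6, 4.54 and 6.82) and SOX9 (8.17, 5.07 and 4.64) were the lowest, and TFAP2B, IRF4 and TFEC had no promoter peak in any replicate. Of 7 ligands and receptors 3 were bound, with mean percentiles of 23.5 for ERBB3, 16.9 for KITLG and 0.982 for EDNRB. Fold enrichments were, in the order A, B1 and B2, 15.9, 13.3 and 13.3 for the receptor ERBB3, 13.6, 11.8 and 10.8 for the KIT ligand KITLG, and 4.99, 3.73 and 4.79 for the endothelin receptor EDNRB. KIT, EDN3, ASIP and POMC had no promoter peak in any replicate. With 1 TSS per gene the count of ligands and receptors was 1 of 7.

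Among 12 known MITF target genes outside pigment synthesis 6 were bound. CDK2, which shares a region with PMEL, was the highest (47.1, 20.0 and 13.6) and BCL2, an inhibitor of cell death, the next (22.6, 14.0 and 16.1), whereas RRAGD (12.1, 6.48 and 9.86) and TBX2 (8.97, 6.48 and 6.57) were the lowest. TRPM1, CAPN3, PPARGC1A, BCL2A1, ABCB5 and CEACAM1 had no promoter peak in any replicate. All 12 genes of the dedifferentiated melanoma state, in which MITF is low, were bound, beside 60.2% of all protein-coding genes. Of these 12, 11 had CpG-island-like sequence at a TSS, and 79.5% of all protein-coding genes with such sequence were called. EGFR (34.3, 21.1 and 22.6) and ZEB1 (37.6, 15.6 and 15.0) were the highest, and AXL (10.6, 8.17 and 5.68) was among the lowest 2. Where a fold enrichment above 10 was required, which 49.6% of protein-coding genes met, the counts were 3 of 12 for the other transcription factors, 3 of 12 for the MITF targets and 7 of 12 for the dedifferentiated state. Since the lists hold binding and not RNA, these counts do not give the state of the cells.

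Of the 12 lineage transcription factors of other tissues 2 were bound, PAX6 (21.6, 13.6 and 12.5) and RUNX2 (10.8, 9.55 and 9.53), although 8 had CpG-island-like sequence at a TSS. None of 7 keratinocyte markers was bound, and 1 of 6 fibroblast markers (PDGFRB, at 10.6, 7.16 and 5.91) and 1 of 5 endothelial and leukocyte markers (CD68, at 15.2, 6.81 and 4.39) were. None of the 7 keratinocyte markers had CpG-island-like sequence at a TSS. Of all protein-coding genes 60.2% were called, with 79.5% of those with such sequence and 9.59% of those without.

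**Figure D5:**
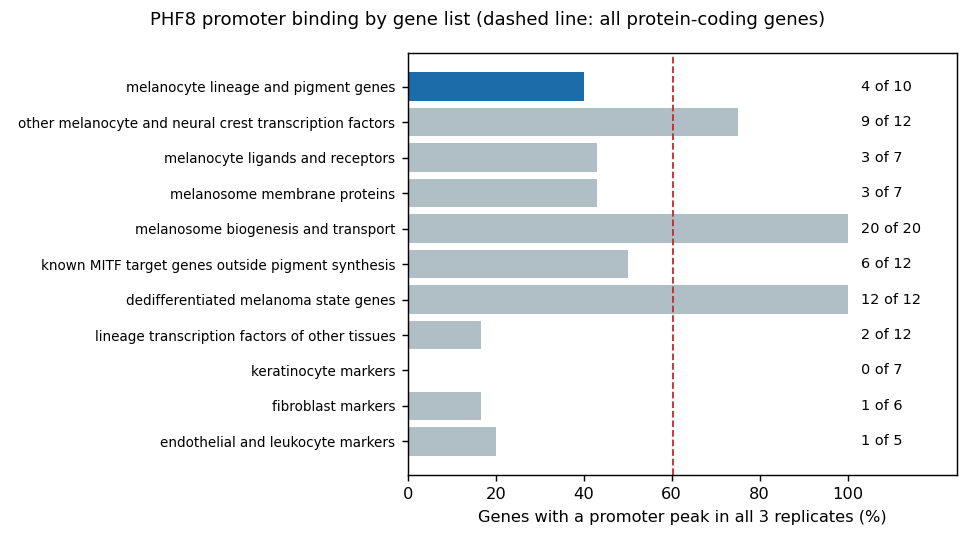
Share of each gene list called bound, that is with a promoter peak in all 3 replicates (bars, %), with counts at the right and a dashed line at the 60.2% of all protein-coding genes. The 10 melanocyte lineage and pigment genes (blue) stood at 40.0%, below the line, with melanosome biogenesis and transport and the dedifferentiated state genes at 100% and the keratinocyte markers at 0.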

How the data were processed

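PHF8 ChIP-seq peak lists of 3 replicates of SKMEL-147 were analysed. The 2 input libraries were used only through the values of the peak caller. As the labels and methods state, the authors had aligned reads to hg19 with Bowtie2 (default settings) and called narrow peaks with MACS (MACS2 in the study's supplement) for each replicate against input, without pooling. The submitters' processing notes also name bcl2fastq and Picard. The release number of MACS2, read totals and the treatment of duplicates are not given in the sources used here.

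The authors deposited for each peak a linear ratio (fold enrichment over local background), a −log10 p-value, a −log10 q-value, a score (not used) and the offset of the summit. All peaks passed the cutoffs of the study, 1.5 for fold enrichment and 0.05 for the q-value (read as an upper limit).

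TSSs came from GENCODE release 44 lifted to GRCh37, and sequences from the GRCh37 genome. A gene was called with a peak overlapping (by 1 bp or more) the 1 kb on either side of a TSS in all 3 replicates. Fragments at a summit were recovered from the deposited fold enrichment and p-value under a Poisson law, which gave whole numbers for 100% of peaks in every list (tolerance 0.001 in −log10 p). They are not corrected for amplification. Python 3.11.15, numpy 2.4.6, scipy 1.17.1 and matplotlib 3.10.9 were used, and the scripts were tested on simulated data. Coordinates are 1-based.

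The members and the gene lists, written from general knowledge, were chosen with earlier results of these data known. Genes named were the members, from each other list the 2 bound genes with the highest and the 2 with the lowest mean percentile, listed genes without a promoter peak, and genes whose TSS shares or is nearest to a peak at a member. NOX4, LURAP1L, TGDS and ERMP1, at the nearest distant peaks, were named after their values were seen. A further listed gene and a further sequence window are not reported here. Alternatives were fold enrichment above 4 or 10, q-values under 0.001, windows of 500 bp and of 2 kb, summits required to lie in the window, 1 TSS per gene, TSSs of coding transcripts, 2 replicates, nearest coding TSS, leaving out each replicate, other strength measures, and other sequence windows and island thresholds.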

Additional observations from a re-analysis of the deposited data

How the results depend on the processing

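The count of 4 bound genes stayed between 3 and 5 under every alternative run. It was 3 with a fold enrichment above 10 or with 1 TSS per gene, each time through the loss of SOX10. It was also 3 where another protein-coding TSS could not be nearer to the summit (53.4% of protein-coding genes called), through the loss of PMEL. It was 5 with a peak in at least 2 replicates (61.3% of protein-coding genes called) or without replicate B2 (60.8%), through the gain of MC1R. Leaving out each replicate gave 4 to 5, with 60.3% of protein-coding genes called without A and 60.6% without B1. MITF was bound at TSS group 1 alone under every alternative run on it. With a fold enrichment above 10, which left 49.6% of protein-coding genes called, 1 member kept a shared gene-body peak (PAX3) in place of 2, and the counts became 3 of 12 for the other melanocyte and neural crest transcription factors, 3 of 12 for MITF targets, 7 of 12 for the dedifferentiated state, 1 of 12 for factors of other tissues, and 0 for the fibroblast and for the endothelial and leukocyte markers. With 1 TSS per gene (54.0% of protein-coding genes), 1 of 7 ligands and receptors, 0 of 12 factors of other tissues and 3 members with a CpG-island-like TSS remained. The fibroblast count was 2 with a 2 kb window (60.9% of protein-coding genes called) or a peak in at least 2 replicates. It was 1 to 2 when each replicate was left out, with 2 without B2. Ranked by fragments, the mean percentile was 76.0 for MITF and 77.1 for PMEL. That of PMEL was 79.7 by −log10 q-value, 77.8 with 1 TSS per gene and 55.3 with a 500 bp window, in which the RAB5B peak no longer counts. In that window MITF stood at 64.2, so the order of PMEL and MITF turned. Without A, B1 or B2 in turn it ranged from 58.6 to 68.7 for MITF, 5.46 to 8.68 for SOX10, 35.2 to 55.1 for PAX3 and 81.8 to 83.5 for PMEL. Replicates could not be paired with those of another condition, because peak lists of 1 group alone were analysed.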
